A study of Mus musculus with 30 samples.

Results

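The integrated stress response genes followed here are Atf4, Ddit3, Trib3, Chac1, Ddit4, Asns, Sesn2, Ppp1r15a, Hspa5 and Xbp1. They were picked by name as genes of the ATF4 and unfolded protein programmes, and all 10 were found by Ensembl identifier among the 43629 genes of the deposited count table. They were read in bone marrow–derived dendritic cells (BMDCs), cells grown from mouse bone marrow in medium with GM-CSF for 6 days. The table holds 30 libraries of poly(A) RNA from 10 numbered cultures, 5 Cacnb3-/- (p974s843, p974s851, p974s852, p974s853 and p974s865) and 5 WT (p974s846, p974s850, p974s855, p974s856, p974s864). Cacnb3 encodes a β subunit of voltage-gated calcium channels. Per the labels, cells were exposed to 500 µM ATP for 30 min and collected at once or after 24 h, and each culture has a library named ctrl, one named 0p5h and one named 24h. The treatment field reads vehicle for the libraries named 0p5h and ATP for 30 min for those named ctrl, the reverse of the names, while for the libraries named 24h field and name give the same treatment. Groups follow the library names. If the treatment field holds instead, a change from ctrl to 0p5h turns its sign and 24h against 0p5h becomes a comparison with vehicle, whereas the genotype comparisons made inside each set are unaffected. Per the study's methods, WT mice were C57BL/6J and Cacnb3-/- mice C57BL/6N, of both sexes, so the genotype and the substrain cannot be told apart. The labels do not say whether the 5 cultures of a genotype came from 5 mice, so p-values measure the spread between these cultures.

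The integrated stress response is a shared pathway by which cells answer amino acid shortage, viral RNA, heme lack or misfolded protein in the endoplasmic reticulum (ER). Each of these activates a kinase that phosphorylates the translation factor eIF2α, which slows protein synthesis in general but favours translation of the Atf4 mRNA, so that the ATF4 protein can rise without a rise of its mRNA. ATF4 binds gene promoters with C/EBP-type partners and drives amino acid transport and synthesis, redox defence and, when stress lasts, Ddit3 (CHOP). The ER branch also acts through XBP1, whose mRNA is spliced by IRE1, and through ATF6, both of which raise ER chaperones. Gene-level counts show neither the phosphorylation of eIF2α, nor translation, nor the splice form of Xbp1.

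The DNA next to the members' start sites is shown for the 5 members that passed a test between libraries of the same culture and for the members with a match to one of 3 motifs. Sequences were taken from RefSeq promoters of GRCm38.p6, in which all 10 members matched, and are read 5′ to 3′ on the gene's strand. They run up to the last base before the gene, except for Trib3. Its printed bases stop at 152344061, while its gene in the count table begins at 152344032. Capitals mark a motif. The motifs were TGATGNAA (the ATF4-C/EBP element), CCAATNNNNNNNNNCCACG (the ER stress element) and TGACGTGG (the UPR element), searched on both strands in the 250 bases before the RefSeq start. No motif overlapped another.
Sesn2 (chr4:132510502-132510706, minus strand): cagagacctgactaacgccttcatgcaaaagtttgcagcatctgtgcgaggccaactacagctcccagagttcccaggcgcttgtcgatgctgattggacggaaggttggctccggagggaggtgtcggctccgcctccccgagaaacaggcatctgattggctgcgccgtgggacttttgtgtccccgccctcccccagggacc
Ddit4 (chr10:59951771-59952020, minus strand): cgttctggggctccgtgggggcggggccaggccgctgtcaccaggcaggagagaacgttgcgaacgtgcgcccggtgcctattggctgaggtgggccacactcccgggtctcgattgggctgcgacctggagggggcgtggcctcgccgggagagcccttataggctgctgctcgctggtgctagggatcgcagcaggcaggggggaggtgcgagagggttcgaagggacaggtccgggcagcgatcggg
Ppp1r15a (chr7:45526269-45526518, minus strand): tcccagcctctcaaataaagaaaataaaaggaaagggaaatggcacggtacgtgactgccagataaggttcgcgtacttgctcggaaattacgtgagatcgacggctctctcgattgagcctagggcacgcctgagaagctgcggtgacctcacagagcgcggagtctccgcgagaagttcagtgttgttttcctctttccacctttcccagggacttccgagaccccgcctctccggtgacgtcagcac
Trib3 (chr2:152344061-152344310, minus strand): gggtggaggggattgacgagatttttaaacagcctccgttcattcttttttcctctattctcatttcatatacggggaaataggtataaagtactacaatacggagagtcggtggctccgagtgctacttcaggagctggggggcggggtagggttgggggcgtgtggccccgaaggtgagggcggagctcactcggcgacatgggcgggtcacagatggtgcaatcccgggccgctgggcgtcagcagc
Chac1 (chr2:119350992-119351228, plus strand): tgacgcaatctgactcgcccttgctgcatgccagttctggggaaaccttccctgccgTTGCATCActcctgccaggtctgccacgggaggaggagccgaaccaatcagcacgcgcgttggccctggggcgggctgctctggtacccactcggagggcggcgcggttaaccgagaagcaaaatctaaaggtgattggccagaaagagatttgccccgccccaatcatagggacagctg
For Asns and Hspa5, whose gene models in the count table begin before the RefSeq start, 30 bases around the match are shown.
Asns (chr6:7693214-7693243, minus strand): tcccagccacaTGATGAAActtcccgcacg
Hspa5 (chr2:34772020-34772049, plus strand): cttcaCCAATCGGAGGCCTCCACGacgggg

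The ATF4-C/EBP element was found in 2 of 10 members, at -23 to -16 from the RefSeq start of Asns and, on the other strand, at -193 to -186 from that of Chac1. Of 32851 promoters of the same length, 3.45% hold it. The ER stress element was found in 1 member, at -65 to -47 of Hspa5, and in 0.113% of all promoters. The UPR element was found in 0 members and in 0.563% of all promoters. These are matches of letters in one window, and Sesn2, Ddit4, Ppp1r15a and Trib3, whose changes within cultures are described next, had no match in it.

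Counts on genes ranged from 8237393 to 32164225 per library. The cells carried the markers of dendritic cells, with all 7 of 7 markers at 1 CPM or more in every group, among them Ccr7 (1667 to 6466 CPM) and Itgax (76.7 to 459 CPM). CPM is the count per 1000000 after TMM normalization. All 6 of 6 macrophage markers and 5 of 7 neutrophil markers were also at 1 CPM or more in every group. This count alone therefore does not set the cell types apart. Macrophage markers summed to 400.5 to 1761 CPM per library, against 11081 to 29872 CPM for dendritic cell markers, and T cell markers to at most 1.08 CPM. These sums run over different genes, so they do not measure the share of each cell type. Fewer cells of one type and less RNA per cell cannot be told apart in such bulk samples. Reads on Cacnb3 were counted in every library, from 573 to 1331 CPM in libraries labelled Cacnb3-/- and from 1035 to 2143 CPM in WT libraries, so gene-level counts, which sum all exons, do not check the genotype labels. The genotypes overlapped in ctrl and 0p5h libraries. In 24h libraries they did not, at 573 to 1295 CPM in Cacnb3-/- and 1303 to 2143 CPM in WT, as for 6.51% of all genes. The share of mitochondrial counts differed between libraries, over 0.706% to 16.5%. The 24h library of culture p974s843 had both the lowest total and the highest mitochondrial share of all 30.

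The 10 genes differed widely in level. Compared per length, as CPM per kilobase (RPKM) averaged over 30 libraries, Atf4 was highest at 223 RPKM, rank 217 of all genes. Ppp1r15a, the phosphatase subunit that reverses eIF2α phosphorylation, followed at 90.7 RPKM. Near it were the stress-induced mTORC1 inhibitors Sesn2 at 83.8 RPKM and Ddit4 (REDD1) at 73.0 RPKM, and Hspa5, the ER chaperone BiP, at 79.1 RPKM. Xbp1 stood at 39.8 RPKM and Ddit3 at 13.5 RPKM. The other three classical ATF4 targets were low, with asparagine synthetase Asns at 2.38 RPKM, the AKT-binding pseudokinase Trib3 at 2.07 RPKM and the glutathione-degrading enzyme Chac1 at 0.736 RPKM. Chac1 rested on 4 to 68 reads per library and Trib3 on 14 to 220, against 4113 to 11252 for Atf4. In each of the 6 groups of 5 libraries, the lowest Atf4 level was above the highest level of the next gene, and Xbp1 was above Ddit3 and Ddit3 above the next gene without overlap. Ppp1r15a, Sesn2, Hspa5 and Ddit4 changed places between groups, and those of the 4 next to each other in the order overlapped in every group except Ppp1r15a and Sesn2 in Cacnb3-/- libraries named 24h, where Sesn2 came after Hspa5 and Ppp1r15a. The lowest of the 4 overlapped with Xbp1 in all groups but WT and Cacnb3-/- 0p5h. Asns and Trib3 overlapped in every group. Ddit3 shares 81 exon bases with genes on the other strand and Ppp1r15a 12 bases, and no strand option is named in the table's header.

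**Figure D1:**
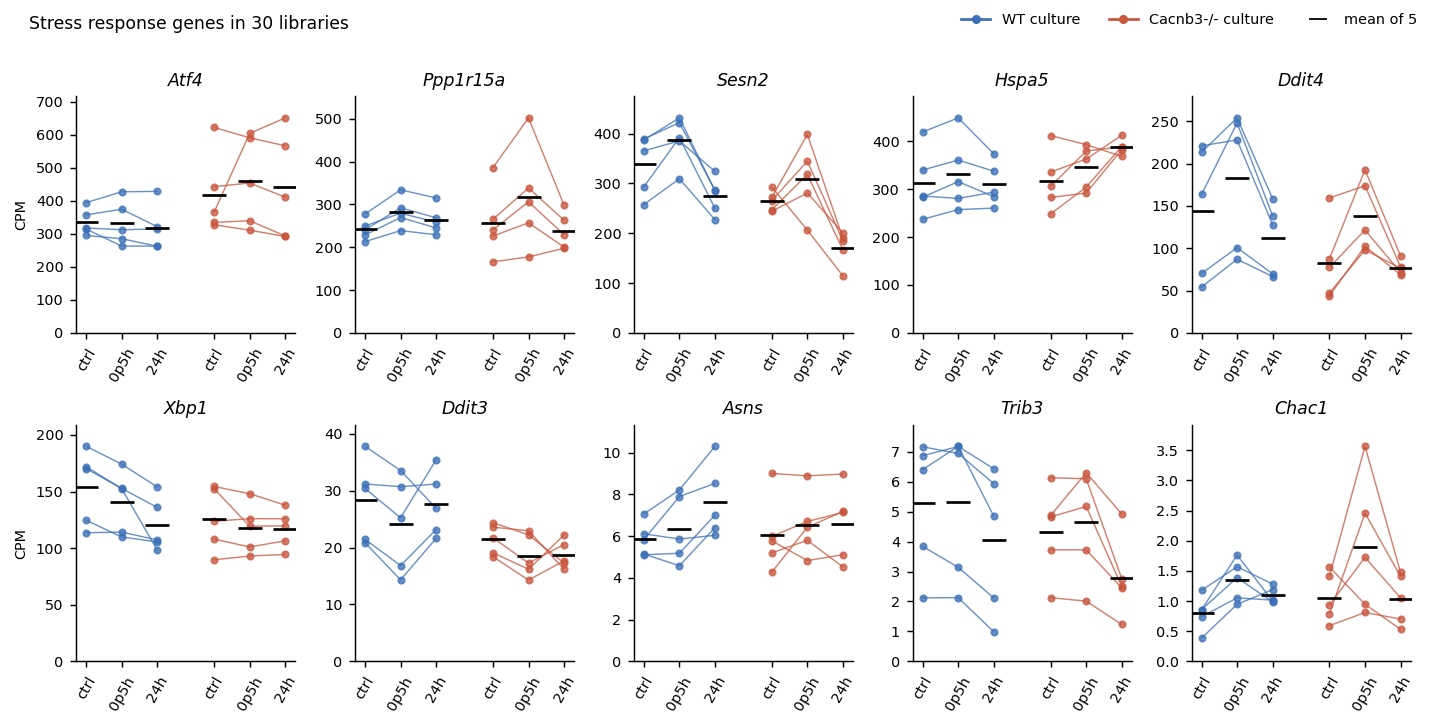
Level of each of the 10 genes in CPM (linear axis from 0, own scale per panel) over the sets ctrl, 0p5h and 24h, with one line per culture, WT at the left and Cacnb3-/- at the right of each panel, and a black bar at the mean of 5. Ddit4 and Sesn2 sat lower in the library named 24h than in that named 0p5h of all 10 cultures, and Atf4 was above 500 CPM only in Cacnb3-/- cultures p974s843 and p974s853.

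Libraries named 0p5h were first compared with those named ctrl, the comparison that asks about the early response to ATP. With the cultures as unpaired groups (edgeR, adjusted p under 0.05 and at least 2-fold), 0 of 10 members were called in WT, where 0.176% of all genes were, and 0 of 10 in Cacnb3-/- cultures, where 0.29% were. DESeq2 also called 0 in both, beside 51 of 14901 genes in WT and 54 of 16213 in Cacnb3-/- cultures. By edgeR, 2 members in WT and 0 in Cacnb3-/- cultures had an unadjusted p under 0.05, as did 4.54% and 3.99% of all genes. Libraries of the same culture deviated together, so changes within cultures were also tested in a fit with the culture as replicate block and with no fold minimum. In that fit 4 of 10 members rose in WT (Ddit4, Ppp1r15a, Sesn2 and Chac1) beside 5.96% of all genes, and 1 rose in Cacnb3-/- cultures (Ddit4) beside 2.35%.

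Ddit4 stood at 221, 70.2, 213, 164 and 54.2 CPM in the WT libraries named ctrl and at 228, 101, 254, 248 and 87.0 CPM in those named 0p5h, in the order of culture numbers. The 5 Cacnb3-/- cultures had 159, 47.2, 77.5, 87.5 and 43.9 CPM in ctrl and 174, 97.9, 122, 193 and 102 CPM in 0p5h. The level was higher in 0p5h in 10 of 10 cultures, while the groups overlapped, with WT cultures p974s850 and p974s864 well below the other three. Within WT cultures Ddit4 rose (log2 fold change 0.42, SE 0.079, adjusted p = 0.0102 with the block), and so it did within Cacnb3-/- cultures (log2 fold change 0.82, SE 0.14, adjusted p = 0.0159), where the unpaired fit gave adjusted p = 1.

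Ppp1r15a had 278, 229, 249.6, 241 and 213 CPM in WT ctrl and 334, 269, 279.6, 292 and 239 CPM in WT 0p5h libraries. It was higher in 0p5h in 5 of 5 WT cultures, by 0.16 to 0.28 on the log2 scale, and rose within them (log2 fold change 0.23, SE 0.04, adjusted p = 0.00616 with the block, against adjusted p = 1 without it). Cacnb3-/- cultures went from 241, 226, 265, 386 and 166 CPM to 306, 257, 338, 502 and 177 CPM, also higher in 5 of 5, but did not pass (log2 fold change 0.26, SE 0.068, adjusted p = 0.0939 with the block). Culture p974s853 was the highest Cacnb3-/- culture in both sets and p974s865 the lowest.

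Sesn2 and Chac1 also passed in WT with the block only. Sesn2 had 366, 293, 389, 387 and 258 CPM in WT ctrl and 385, 392, 422, 432 and 309.5 CPM in WT 0p5h libraries, higher in 5 of 5 cultures (log2 fold change 0.22, SE 0.051, adjusted p = 0.0338 with the block and adjusted p = 1 without it). In Cacnb3-/- cultures it was higher in 4 of 5, from 244 to 293 CPM in ctrl to 206 to 398 CPM in 0p5h, and lower in p974s843 (log2 fold change 0.19, SE 0.13, adjusted p = 0.548 with the block). Chac1 was 1.18, 0.853, 0.384, 0.740 and 0.859 CPM in WT ctrl and 1.57, 1.76, 0.946, 1.05 and 1.39 CPM in WT 0p5h libraries (log2 fold change 0.77, SE 0.19, adjusted p = 0.0378 with the block and adjusted p = 0.921 without it), higher in 5 of 5 cultures but by less than 1 CPM.

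Ddit3, the gene of the pro-apoptotic factor CHOP, was lower in 0p5h than in ctrl in 10 of 10 cultures but did not pass in WT (log2 fold change -0.25, SE 0.071, adjusted p = 0.0726 with the block) or in Cacnb3-/- cultures (log2 fold change -0.23, SE 0.082, adjusted p = 0.217). Atf4 did not pass either, with log2 fold changes of -0.0047 (95% interval -0.32 to 0.31) in WT and 0.12 (-0.40 to 0.65) in Cacnb3-/- cultures without the block. Trib3, Asns, Hspa5 and Xbp1 lay between -0.12 and 0.13 in WT and between -0.11 and 0.11 in Cacnb3-/- cultures on the log2 scale, with no adjusted p under 0.05 in either fit. Without the block, the 95% interval lay within 2-fold for 8 of 10 members in WT and 8 of 10 in Cacnb3-/- cultures, and Chac1 and Ddit4 were the exceptions in both.

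The libraries named 24h were then set against those named 0p5h. Without the block, 0 of 10 members were called in WT, beside 0.639% of all genes, and 0 of 10 in Cacnb3-/- cultures, beside 0.66%, with an unadjusted p under 0.05 for 1 and 2 members and for 11.2% and 17.5% of all genes. With the block and no fold minimum, 2 of 10 fell in WT (Sesn2 and Ddit4), beside 11.3% of all genes. In Cacnb3-/- cultures 5 of 10 fell (Sesn2, Ddit4, Trib3, Chac1 and Ppp1r15a), beside 28.6%, and 0 rose in either genotype.

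Sesn2, which restrains mTORC1 when leucine is short, was lower at 24h in 10 of 10 cultures. WT libraries named 24h held 324, 250.1, 286, 285 and 227 CPM, each below the 0p5h library of its culture by 0.25 to 0.65 on the log2 scale (log2 fold change -0.50, SE 0.077, adjusted p = 0.00447 with the block and adjusted p = 0.0977 without it). Cacnb3-/- cultures had 206, 345, 318, 398 and 281 CPM in 0p5h and 115, 185, 167, 190.0 and 201 CPM in 24h. These 2 groups did not overlap, as for 2 of 10 members (Sesn2 and Ddit4) and 3.21% of all genes (log2 fold change -0.83, SE 0.10, adjusted p = 0.000243 with the block and adjusted p = 0.0712 without it). Culture p974s843 was the lowest in both sets, and without it the unpaired value was -0.85 (adjusted p = 0.0425). The unpaired fit did not pass with any other single culture left out (adjusted p = 0.376 without p974s851 and 0.138 without p974s852). DESeq2 gave adjusted p = 0.0129 in WT and 0.00442 in Cacnb3-/- cultures. The mitochondrial share spanned 2.16% to 10.5% in Cacnb3-/- 0p5h and 3.21% to 16.5% in Cacnb3-/- 24h libraries, and its part in these changes was not tested.

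Ddit4 was also lower at 24h in 10 of 10 cultures. WT libraries held 87.0 to 254 CPM in 0p5h and 128, 69.8, 159, 138 and 66.6 CPM in 24h (log2 fold change -0.65, SE 0.085, adjusted p = 0.00205 with the block and adjusted p = 0.5 without it). Cacnb3-/- libraries held 97.9 to 193 CPM in 0p5h and 77.8, 76.4, 71.3, 90.9 and 68.8 CPM in 24h (log2 fold change -0.77, SE 0.12, adjusted p = 0.00124 with the block and adjusted p = 0.082 without it), so that the 24h values lay close together and below all 0p5h values. The spread between Cacnb3-/- cultures was 11.2% of the mean at 24h and 56.1% in ctrl.

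Trib3 was lower at 24h than at 0p5h in 10 of 10 cultures, at 4.92, 2.51, 1.23, 2.46 and 2.76 CPM in Cacnb3-/- libraries against 2.01 to 6.30 CPM (log2 fold change -0.79, SE 0.18, adjusted p = 0.00841 with the block), and did not pass in WT (log2 fold change -0.45, SE 0.15, adjusted p = 0.0847). After removal of the trend of each library with gene GC content as well, the call moved to WT, with adjusted p = 0.0357 in WT and 0.072 in Cacnb3-/- cultures. Chac1 in Cacnb3-/- cultures, at 0.810 to 3.57 CPM in 0p5h and 0.532 to 1.47 CPM in 24h, passed only without that correction (adjusted p = 0.0282 against 0.105). So did Ppp1r15a, at 177 to 502 CPM in 0p5h and 198 to 299 CPM in 24h and lower in 4 of 5 cultures (adjusted p = 0.0483 against 0.342). Sesn2 and Ddit4 passed under both, although removal of the trend took Ddit4 in Cacnb3-/- cultures to -0.46. Asns was higher at 24h in 5 of 5 WT cultures (log2 fold change 0.28, SE 0.11, adjusted p = 0.147 with the block), and Atf4, Ddit3, Hspa5 and Xbp1 did not pass in either genotype.

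**Figure D2:**
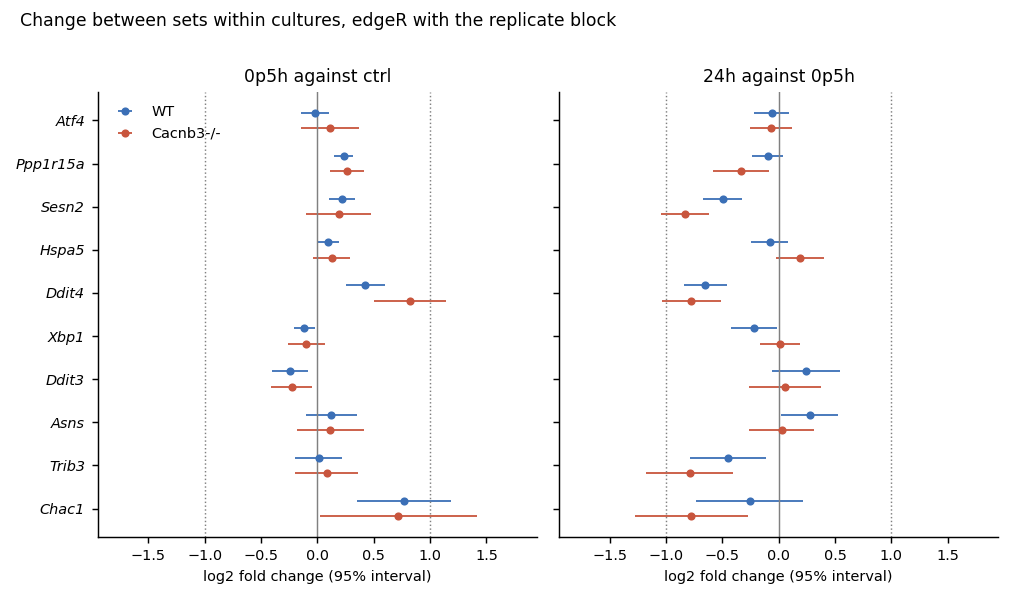
Log2 fold change of each gene within cultures (edgeR with the replicate block), later over earlier set, with 95% intervals and dotted lines at 2-fold. WT values are blue and Cacnb3-/- values red, each from 5 cultures. Ddit4 lies above 0 in 0p5h against ctrl and, with Sesn2, below 0 in 24h against 0p5h in both genotypes.

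Between ctrl and 24h, 0 of 10 members were called in WT, beside 0.0152% of all genes, and 0 of 10 in Cacnb3-/- cultures, beside 0%, with an unadjusted p under 0.05 for 1 member in each and for 8.39% and 10.8% of all genes. With the block 0 of 10 passed in WT, beside 6.05% of all genes. Without the block Sesn2 did not pass in WT (log2 fold change -0.29, SE 0.14, adjusted p = 0.6) or in Cacnb3-/- cultures (log2 fold change -0.63, SE 0.15, adjusted p = 0.41). The 5 Cacnb3-/- cultures had 293, 266, 247, 272 and 244 CPM in ctrl and did not overlap with their 24h values, as for 1 of 10 members and 1.21% of all genes, and DESeq2 gave adjusted p = 0.034. Xbp1 was lower at 24h than in ctrl in 5 of 5 WT cultures, with 114 to 190.0 CPM in ctrl and 98.2 to 154 CPM in 24h, but did not pass (log2 fold change -0.34, SE 0.11, adjusted p = 0.0933 with the block). Asns was higher in 4 of 5, with 5.10 to 7.06 CPM in ctrl and 6.04 to 10.3 CPM in 24h, and did not pass (log2 fold change 0.38, SE 0.13, adjusted p = 0.109 with the block). The 3 comparisons of sets share libraries, so their values are not independent of each other.

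**Figure D3:**
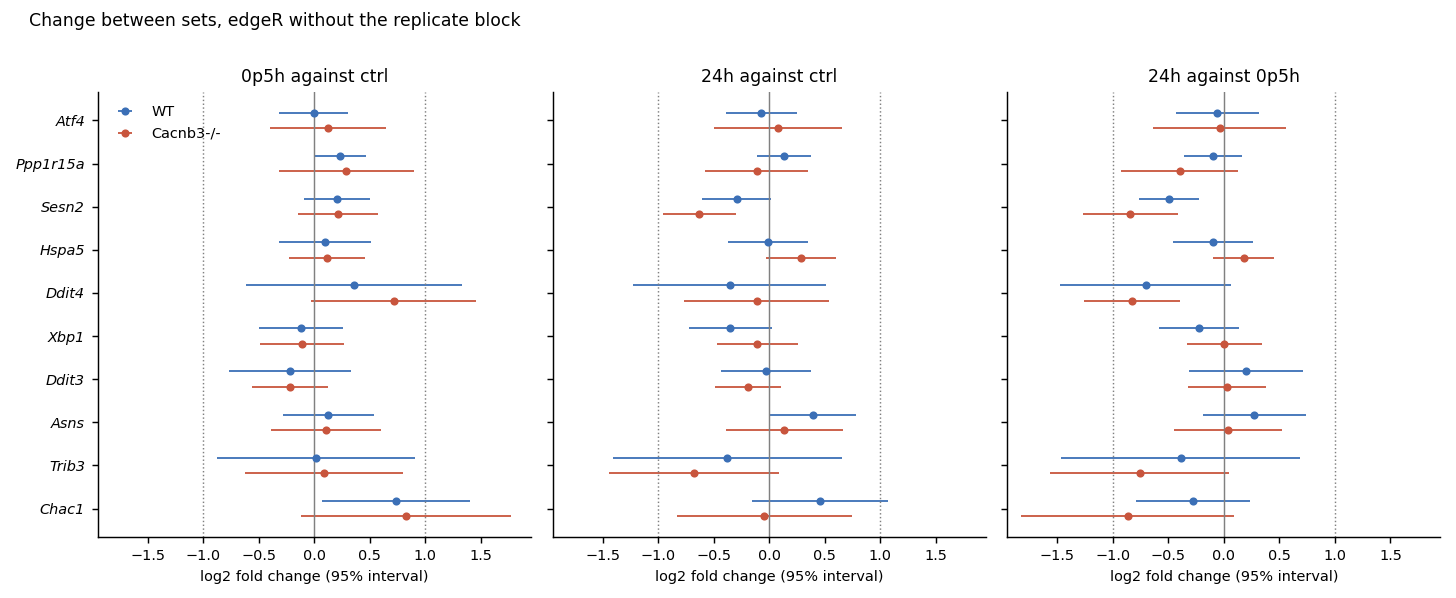
The same log2 fold changes without the replicate block, for the 3 pairs of sets in WT (blue) and Cacnb3-/- (red) cultures, with 95% intervals and dotted lines at 2-fold. The intervals are wider than within cultures, and that of Ddit4 reaches past 2-fold in 5 of the 6 comparisons.

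The comparison of genotypes asks whether loss of Cacnb3 shifts these genes. By edgeR, 0 of 10 members were called at adjusted p under 0.05 and 2-fold in the ctrl set (0% of all genes), the 0p5h set (0%), the 24h set (0%) or with the 3 libraries of each culture summed (0%). An unadjusted p under 0.05 was reached by 2, 1, 4 and 2 members, beside 16.6%, 16.4%, 38.4% and 23.3% of all genes, so the members' counts are near the background. DESeq2 also called 0 members at 2-fold in all 4. Over all genes it called 146 of 14281 in ctrl and 83 of 13591 in 0p5h libraries. In 24h libraries it called 637 of 14232 and in summed libraries 258 of 14804. Beside such counts, 0 of 10 does not set the members apart from other genes. Without a fold minimum DESeq2 passed 3 of 10 at 24h (Sesn2 and Ddit3 lower and Hspa5 higher in Cacnb3-/- cultures), beside 22.6% of all genes, which is again near the members' share.

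Sesn2 was the 1 of 10 members whose genotypes did not overlap at 24h, beside 6.51% of all genes. In ctrl and 0p5h libraries 0 of 10 members were without overlap, beside 1.93% and 2.05% of all genes. The 5 WT libraries held 324, 250.1, 286, 285 and 227 CPM and the 5 Cacnb3-/- libraries 115, 185, 167, 190.0 and 201 CPM, so that every Cacnb3-/- value was below every WT value. The mean was 171 ± 34.1 CPM in Cacnb3-/- and 275 ± 37.2 CPM in WT cultures (SD, n = 5). The difference did not pass in edgeR (log2 fold change -0.67, SE 0.16, adjusted p = 0.0515) and passed in DESeq2 (adjusted p = 0.00705) and in an edgeR fit of all 30 libraries (adjusted p = 0.00546). With the trend in GC content removed from each library it was -0.34 (adjusted p = 0.178). It passed in edgeR when Cacnb3-/- culture p974s865 (adjusted p = 0.0111) or WT culture p974s864 (adjusted p = 0.0377) was left out. Sesn2 was also lower on average in ctrl (-0.33, adjusted p = 0.273) and 0p5h libraries (-0.31, adjusted p = 0.371), where the genotypes overlapped.

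Ddit3 had 31.2, 23.2, 26.9, 35.5 and 21.7 CPM in WT and 17.3, 20.5, 17.7, 16.2 and 22.2 CPM in Cacnb3-/- libraries named 24h, where one Cacnb3-/- culture lay within the WT range (log2 fold change -0.54, SE 0.16, adjusted p = 0.0518). DESeq2 gave adjusted p = 0.0192 and removal of the GC trend 0.132, with a log2 fold change of -0.53. It was lower in Cacnb3-/- cultures in each set on average, with log2 fold changes of -0.38 in ctrl, -0.36 in 0p5h and -0.54 in 24h libraries. Hspa5 had 294, 337, 284, 260.3 and 374 CPM in WT and 389, 412, 368, 382 and 388 CPM in Cacnb3-/- libraries named 24h (log2 fold change 0.34, SE 0.13, adjusted p = 0.0764). Only WT culture p974s864 reached the Cacnb3-/- range, and removal of the GC trend took the value to 0.071.

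Atf4 was higher on average in Cacnb3-/- cultures, with log2 fold changes of 0.34 in ctrl, 0.49 in 0p5h and 0.49 in 24h libraries, but did not pass (adjusted p = 0.361, 0.296 and 0.154). Its 5 Cacnb3-/- values at 24h were 651, 293, 411, 566 and 292 CPM against 428, 263, 314, 321 and 262 CPM in WT. Cultures p974s843 and p974s853 were far above the other Cacnb3-/- cultures, which lay within the WT range, and without p974s843 the value was 0.31. The 24h libraries of both were sequenced in lane 3, as were those of Cacnb3-/- culture p974s852 (411 CPM) and WT culture p974s855 (314 CPM). With the lane as a covariate, an alternative chosen after seeing the data, the difference at 24h was 0.22 (adjusted p = 0.54), and with the GC trend removed 0.94 (adjusted p = 0.132).

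Ddit4 was lower on average in Cacnb3-/- cultures, with log2 fold changes of -0.77 in ctrl, -0.40 in 0p5h and -0.53 in 24h libraries, and did not pass in any (adjusted p = 0.384, 0.537 and 0.118). The 24h value was -0.013 once the GC trend was removed. For Trib3, Chac1, Asns, Ppp1r15a and Xbp1 the log2 fold change at 24h lay between -0.56 and -0.027, with adjusted p from 0.403 to 0.913. The 95% interval lay within 2-fold for 7 of 10 members in ctrl, 7 in 0p5h and 6 in 24h libraries, and it reached past 2-fold for Trib3 and Ddit4 in each set. The median log2 fold change of the 10 members was -0.16 at 24h, against 0.013 over all genes tested.

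Other values of the 24h libraries are given beside these results. The mitochondrial share was 3.21% to 16.5% in Cacnb3-/- against 0.706% to 5.61% in WT libraries, and total counts were 8237393 to 22535554 against 12988438 to 24168253. The 7 dendritic cell markers summed to 11081 to 20671 CPM in Cacnb3-/- (median 12062) and 15926 to 28531 CPM in WT libraries (median 24199.6). The macrophage and neutrophil marker sums overlapped widely, with medians of 729.8 and 614 CPM for macrophage and 343 and 359.6 CPM for neutrophil markers in Cacnb3-/- and WT libraries. Over the 30 libraries, Sesn2 correlated with the mitochondrial share at r = -0.70, Ddit3 at r = -0.69 and Hspa5 at r = 0.56 (log2 scales, a description, since libraries share cultures). Other members did so too, with Xbp1 at r = -0.64, Trib3 at -0.60, Ddit4 at -0.52 and Atf4 at 0.52. Chac1 (0.21), Ppp1r15a (0.12) and Asns (-0.03) were nearer to 0. The part of the mitochondrial share and of the dendritic cell markers in the differences of Sesn2, Ddit3 and Hspa5 was not tested.

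**Figure D4:**
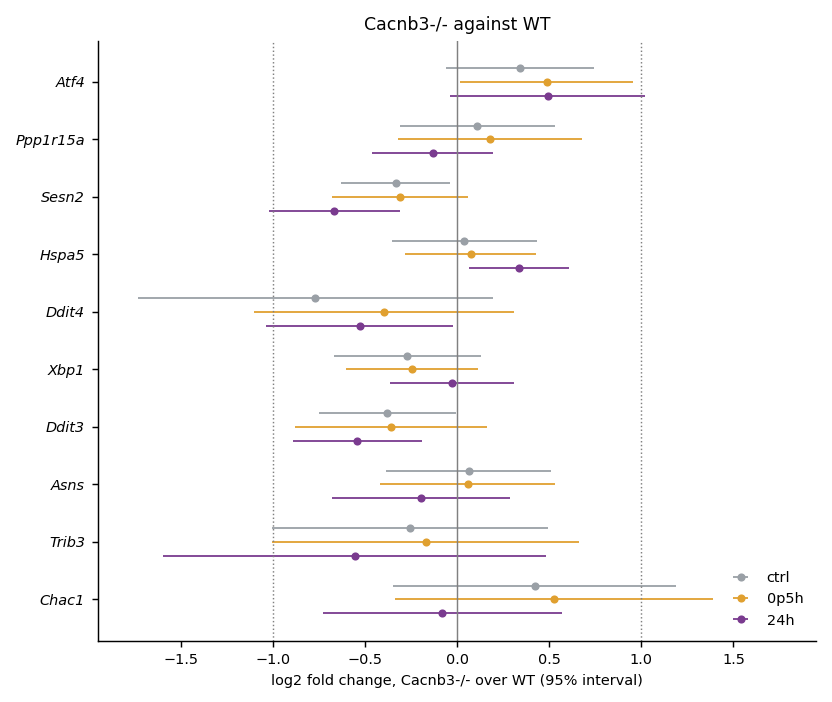
Log2 fold change of each gene in Cacnb3-/- over WT cultures (edgeR, 5 against 5 libraries) in the sets named ctrl, 0p5h and 24h, with 95% intervals and dotted lines at 2-fold. Sesn2, Ddit3 and Ddit4 lie below 0 and Atf4 above 0 in each set, and the 24h interval of Sesn2 runs from -1.02 to -0.31.

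Whether the change between sets itself differed by genotype was tested as an interaction. By edgeR 0 of 10 members were called for 0p5h against ctrl, 0 for 24h against ctrl and 0 for 24h against 0p5h, beside 0%, 0% and 0% of all genes. DESeq2 called 0 members as well, beside 0 of all genes in each. An unadjusted p under 0.05 was reached by 0, 0 and 0 members, beside 0.223%, 4.86% and 5.88% of all genes. With such shares, 0 of 10 does not set the members apart from other genes. The fall of Sesn2 from 0p5h to 24h differed by -0.35 on the log2 scale (Cacnb3-/- minus WT), with a 95% interval of the difference from -0.84 to 0.14 (adjusted p = 0.69, and 0.115 with the block). For Ddit4 the difference in the 0p5h against ctrl change was 0.37, with an interval from -0.86 to 1.60. Calls made in Cacnb3-/- cultures and not in WT, such as that of Trib3, are therefore not shown to be particular to that genotype.

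The members belong to wider programmes, which were read from 5 further lists of 80 genes chosen with earlier results of these data known. Without the block, 0 genes of the lists were called at 2-fold in any of the 13 comparisons, and 1 passed without a fold minimum. This was Eprs, the tRNA synthetase for glutamate and proline, in WT 24h against 0p5h (log2 fold change -0.50, SE 0.10, adjusted p = 0.045), from 83.4 ± 10.5 to 58.9 ± 5.18 CPM (SD, n = 5). The list of 26 other ATF4 partners and targets had Mthfd2, a mitochondrial folate enzyme, as its highest gene (231 RPKM on average) and Fgf21 as its lowest (0.00305 RPKM). Within cultures from ctrl to 0p5h, 3 of its 22 tested genes rose and 1 fell in WT, and 3 of 21 rose and 1 fell in Cacnb3-/- cultures, beside 5.96% and 2.35% of all genes that passed. In both genotypes the genes that rose were the stress factor Atf3, the ATF4 partner Cebpb and the amino acid transporter subunit Slc3a2, and the gene that fell was the transporter Slc38a2. Atf3 went from 315 ± 60.8 to 439.8 ± 56.2 CPM in WT (log2 fold change 0.50, SE 0.10, adjusted p = 0.0113). Slc3a2 went from 351 ± 33.7 to 464 ± 34.3 CPM in WT (log2 fold change 0.41, SE 0.045, adjusted p = 0.00033).

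From ctrl to 24h in WT, 6 of 23 genes of this list rose and 0 fell with the block, beside 6.05% of all genes that passed, with a median log2 fold change of 0.18 against -0.0079 over all genes tested. They were Mthfd2, the proline synthesis gene Aldh18a1, the glutamine transporter Slc1a5, the factor Atf5, the stress hormone Gdf15 and the cysteine synthesis gene Cth. Mthfd2 went from 529.8 ± 84.1 to 692 ± 80.0 CPM (log2 fold change 0.40, SE 0.084, adjusted p = 0.0255). From 0p5h to 24h, 6 of 22 rose and 4 fell in WT and 2 of 21 rose and 5 fell in Cacnb3-/- cultures, where 11.3% and 28.6% of all genes passed, so the Cacnb3-/- count is near the background. Past 2-fold in WT were Gdf15 (log2 fold change 1.30, SE 0.15, adjusted p = 0.00113) and Cth (log2 fold change 1.17, SE 0.25, adjusted p = 0.0176), both low, with Gdf15 at 3.81 ± 2.38 and Cth at 1.02 ± 0.259 CPM at 24h. In Cacnb3-/- cultures Gdf15 did not pass (log2 fold change 0.0015, SE 0.20, adjusted p = 0.996), and its difference between genotypes did not pass either (log2 fold change -1.30, SE 0.27, adjusted p = 0.108 with the block). Apart from Eprs, Mthfd2 and Fgf21, the genes named in these lists were chosen after their values were seen.

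The list of 11 eIF2 kinases and eIF2 or eIF2B factors holds the upstream part of the pathway. With the block it had 0 higher and 0 lower genes from ctrl to 0p5h in WT, beside 5.96% of all genes that passed. From 0p5h to 24h in WT it had 1 higher and 0 lower, beside 11.3%. In Cacnb3-/- cultures from 0p5h to 24h, Eif2ak2, the double-stranded RNA sensor PKR, rose (log2 fold change 0.83, SE 0.14, adjusted p = 0.00218) and Eif2b2 fell (log2 fold change -0.56, SE 0.13, adjusted p = 0.012). In that fit 28.6% of all genes passed, so the count of 1 higher and 1 lower of 11 is not above the background. The highest gene of the list was Ppp1r15b, the constitutive counterpart of Ppp1r15a, at 24.1 RPKM and the lowest Eif2b3 at 0.763 RPKM. Of 12 cytosolic tRNA synthetases, 0 rose and 0 fell from ctrl to 0p5h in WT, beside 5.96% of all genes that passed. From 0p5h to 24h 1 rose (Wars) and 1 fell (Eprs) in WT, beside 11.3% of all genes. In Cacnb3-/- cultures 1 rose and 2 fell, beside 28.6%. Nars was the highest of the synthetases at 51.0 RPKM and Eprs the lowest at 4.16 RPKM.

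On the ER side, 0 of the 5 UPR sensors and proteases passed in the 6 comparisons of sets with the block. Of all genes, 2.35% to 28.6% passed in these fits. Atf6b was the highest of the 5 at 20.5 RPKM and Mbtps2 the lowest at 1.54 RPKM. Of 26 ER chaperones and degradation factors, 3 rose and 0 fell from ctrl to 0p5h in WT and 0 rose and 0 fell in Cacnb3-/- cultures, beside 5.96% and 2.35% of all genes that passed. From 0p5h to 24h 0 rose and 2 fell in WT, and 5 rose and 5 fell in Cacnb3-/- cultures, where 11.3% and 28.6% of all genes passed. P4hb, the protein disulfide isomerase and the highest of the list at 198 RPKM, fell in WT (log2 fold change -0.32, SE 0.078, adjusted p = 0.0309) and in Cacnb3-/- cultures (log2 fold change -0.61, SE 0.085, adjusted p = 0.00073), and the lowest was Derl3 at 0.552 RPKM. Ero1l, the oxidase that recharges P4hb and is also induced by hypoxia, fell past 2-fold in WT, from 284 ± 180.4 to 121 ± 72.7 CPM (log2 fold change -1.27, SE 0.20, adjusted p = 0.00445 with the block and adjusted p = 0.432 without it). Ero1l was also among the list genes that passed with the block in Cacnb3-/- cultures, where 0 of those reached 2-fold. For the genotypes at 24h, the median log2 fold change of the ER chaperones was 0.19, against 0.013 over all genes tested. That of the ATF4 list was -0.22 and that of the tRNA synthetases -0.19. In edgeR 0 genes of each list passed adjusted p under 0.05, beside 0% of all genes.

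The 10 members did not vary as one block. Over the 30 libraries, Pearson r of log2(CPM + 1) was highest for Trib3 with Xbp1 (0.74), Chac1 with Ppp1r15a (0.72) and Atf4 with Ppp1r15a (0.63). Hspa5 ran opposite to Ddit3 (-0.76), Trib3 (-0.71) and Ddit4 (-0.64). Deviations from the group means leave out differences between the 6 groups and keep those between cultures and between libraries of one culture. Over these deviations, Ddit3 with Ddit4 reached 0.79 and Atf4 with Ppp1r15a 0.78, and Hspa5 with Ddit4 was at -0.78. Atf4 mRNA had an r of 0.13 with Trib3, -0.08 with Ddit3 and -0.50 with Asns. These are descriptions over libraries that share cultures, depth and mitochondrial share.

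**Figure D5:**
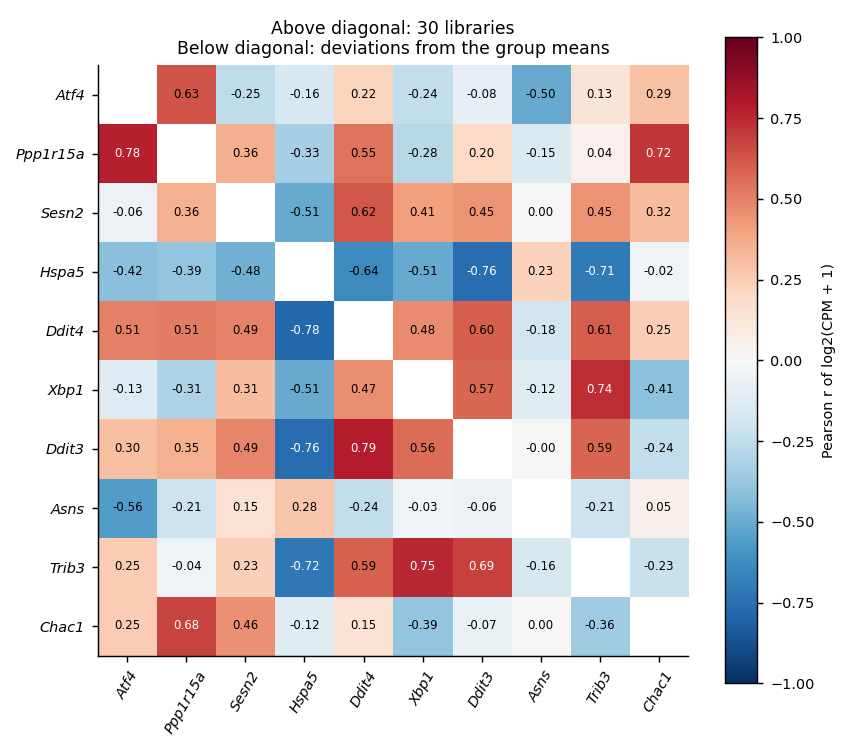
Pearson r of log2(CPM + 1) between the 10 genes, over the 30 libraries above the diagonal and over deviations from the 6 group means below it, from blue (-1) to red (1). The row and column of Hspa5 are mostly blue, and Ddit3, Ddit4, Trib3 and Xbp1 are red with each other.

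The genes outside the list with the most similar pattern, by the same r over 30 libraries among genes with a mean of at least 5 CPM, differed for each member. For Atf4 they were Ing2 (r = 0.95), Anp32b (0.93) and Pla2g12a (0.93), and for Ddit3 Ticam1 (r = 0.92), Rnf31 (0.92) and Relt (0.91). Sesn2 was closest to Nfkbie (r = 0.92), Sema7a (0.91) and Vps37b (0.90), and Ddit4 to Gadd45g (r = 0.92), Auh (0.89) and Kdm4a (0.88). Ppp1r15a was closest to Ppdpf (r = 0.90), Dbn1 (0.86) and Prr7 (0.86), and Trib3 to Tmem119 (r = 0.95), Pfkp (0.95) and Pgm1 (0.95). Xbp1 was closest to Samd9l (r = 0.88), Col15a1 (0.88) and Irak3 (0.88). For Hspa5 they were Calm2 (r = 0.89), Ranbp1 (0.88) and Pdia4 (0.88), the third of which is an ER protein disulfide isomerase of the chaperone list. Asns with Eef1akmt1 (r = 0.72), Rsu1 (0.70) and Cat (0.69) and Chac1 with Eif3g (r = 0.76), Rdm1 (0.73) and Fdx1 (0.73) had the lowest values of r, and both were among the members with the fewest reads.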

How the data were processed

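The authors deposited raw read counts per gene, without normalization, for 30 libraries. The table's header names featureCounts 1.5.1 on exons of GRCm38 (Ensembl release 79) and alignments of read 1, with no option for strand, multiple alignments, overlaps or pairs, and the submitters' processing notes name STAR 2.4, DESeq2 and mm10. The methods name GRCm39 and paired reads, so coordinates are those of the table. Groups follow library names and the genotype label, and 0 columns of samples were left unused.

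R 4.3.3 with edgeR 4.0.16 (TMM, filterByExpr, quasi-likelihood test) fitted all genes that passed the filter, and p-values were Benjamini-Hochberg adjusted over them. All 10 members passed in the 13 comparisons, namely 4 of genotypes, 6 of sets and 3 interactions. Calls needed adjusted p under 0.05 and 2-fold, as in the study's methods. DESeq2 1.42.0, which the study used, was an alternative, as were its size factors, no filter, no fold minimum, 1 fit of all 30 libraries, removal of the GC trend, a replicate block by culture number, and leaving out single cultures in turn. The sequencing lane was added after seeing the data. The fits were also run on counts simulated with a fixed spread, which checks the code and does not back the counts of 0.

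Libraries of one culture were treated as paired where all 5 correlations of their deviations from the group means, over 13755 genes, were over 0.1. This held in 5 of 6 comparisons of sets, with lowest values from 0.315 to 0.576, and not for ctrl with 24h in Cacnb3-/- cultures, where p974s843 gave 0.0742.

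RPKM is CPM per kilobase of the deposited gene length. Genes named by rule were the members, Cacnb3, list genes called at 2-fold without the block (none were), the highest and lowest gene of each list by RPKM and the 3 genes most like each member. Other list genes were named after their values were seen. Members and lists were chosen with earlier results of these data known. Symbols were found for 89.4% of identifiers. Depth was 8237393 to 32164225 counts per library.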

Additional observations from a re-analysis of the deposited data

How the results depend on the processing

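The count of members called at 2-fold was 0 in all 13 comparisons. It was 0 in all 189 settings, a number that includes the 13 reported fits. With the replicate block it was 0 of 10 in every comparison of sets and interaction. Few of all genes were called at 2-fold either. With the block alone these were from 76 of 13085 (WT, 0p5h against ctrl) to 367 of 12730 (Cacnb3-/-, 24h against 0p5h) between sets. For interactions they were at most 16 of 13536. The highest count in any setting was 1129 of 12785, between genotypes at 24h without Cacnb3-/- p974s865. A count of 0 of 10 therefore does not set the members apart from other genes. Of 1760 values of single members under an alternative, 95 had the other sign, none of them past adjusted p under 0.05. Without a fold minimum, 44 passed where the reported value did not, 13 with the block, 11 with the block and the GC trend removed, 7 by DESeq2, 8 with a culture left out, 3 with all 30 libraries in one fit and 2 without the filter. Of those with a culture left out, 4 came at 24h between genotypes without WT p974s864 (Sesn2, Ddit3, Ddit4 and Hspa5). In that fit 2389 of 12781 genes passed. Another 2 came without Cacnb3-/- p974s865 (Sesn2 and Ddit3), where 4513 of 12785 genes passed. With single cultures left out, Sesn2 at 24h ranged from -0.72 to -0.55. The cause was not tested.

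From ctrl to 24h in Cacnb3-/- cultures, where the numbers did not pair all libraries, the block passed 1 of 10 members, Sesn2 (log2 fold change -0.65, SE 0.14, adjusted p = 0.024), beside 8.54% of all genes. Over all genes, DESeq2 called 146, 83, 637 and 258 genes at 2-fold between genotypes in ctrl, 0p5h, 24h and summed libraries, where edgeR called 0. The edgeR count at 24h was 615 in one fit of all 30 libraries, 376 without the filter, 1129 without Cacnb3-/- p974s865 and 733 without WT p974s864. It was 249 in ctrl without WT p974s864, and for summed libraries 190 without Cacnb3-/- p974s865 and 380 without WT p974s864. Depending on the comparison, the 0 thus changes with the tool, the filter, the libraries fitted together or the cultures kept. Chac1, Trib3 and Asns rest on few reads, which limits what their intervals can show. The lane holds unequal numbers of each genotype.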
